A study of Mus musculus with 16 samples.

Results

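The TRIM family genes of the mouse were examined for H3K27ac, a histone acetylation that marks active promoters and enhancers, in bone marrow-derived macrophages (BMDMs). Members were the protein-coding genes of the mm10 annotation whose symbol is Trim, a number and an optional letter, which gave 68 genes of 21938. BMDMs from C57Bl6 mice of 8 to 12 weeks were left untreated (Control), given IFNγ at 100 ng/mL for 1 h, given the PARP inhibitor PJ34 at 20 µM, or given PJ34 for 1 h before IFNγ (IFNγ+PJ34). Each condition had 2 ChIP and 2 input replicates, which the authors combined into 1 peak list, so that the values below have no replicate error and no test was made.

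Most TRIM proteins carry a RING finger, B-boxes and a coiled coil. Most act as ubiquitin E3 ligases whose C-terminal domain, often a SPRY domain, binds the target. Several members are interferon-stimulated genes and restrict viruses, such as Trim5 and its rodent relatives Trim12a, Trim12c and the Trim30 genes, while Trim21 is a cytosolic antibody receptor and Trim25 modifies the RNA sensor RIG-I. Promoters of genes that respond to IFNγ often carry the GAS element or the interferon-stimulated response element (ISRE), which IRF factors bind.

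The sequences that bear on the interferon comparisons are given first. The ISRE was searched for as GAAA, 2 bases of any kind and GAAA on both strands of RefSeq promoters (250 bases before to 50 after a start site, GRCm38), where overlapping matches were allowed. It was found in 9 of the 53 members with a promoter in that set (17.0%) and in 4.02% of the promoters of 16522 genes. The stretches around matches at 8 of these members are shown because each lay in an H3K27ac peak in all 4 lists. Capitals mark the match, and each is written in the direction in which the motif reads.
Trim21: agaggaaactGAAAGTGAAAtttggactgc
Trim34a: gcagagaaaaGAAACTGAAActccaaacca
Trim5: ctctggaaatGAAACAGAAAccacaactct
Trim12a: ctctggaaatGAAACAGAAAccacaactct
Trim12c: agctggaaatGAAACAGAAAccacaactct
Trim30a: caggaactgaGAAAAAGAAActaaagaact
Trim30d: caggaactgaGAAAAAGAAActaaagaact
Trim26: ccgagaaaagGAAAGTGAAAtcggaagcgg
Trim21 and Trim26 each held a further ISRE match that overlapped the one shown. Trim30a held a second match at another start site (chr7:104446104-104446133), also in a peak in all 4 lists. The match of Trim2 lay at a start site with no peak in any list. The longer form, with CT after the second GAAA, was present at 3 of the 53 members (Trim30a, Trim30d and Trim34a) and at 0.375% of all genes with a promoter sequence. The stretches of Trim30a (chr7:104465210-104465239) and Trim30d (chr7:104507871-104507900) were identical, as were those of Trim5 (chr7:104288136-104288165) and Trim12a (chr7:104315466-104315495). That of Trim21 lay at chr7:102565444-102565473, that of Trim34a at chr7:104244457-104244486, that of Trim12c at chr7:104353359-104353388 and that of Trim26 at chr17:36836976-36837005.

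The GAS element, searched for as TTCNNNGAA on both strands, was found in 6 of the 53 members (11.3%) and in 9.02% of all genes, and the form with its ends exchanged, GAANNNTTC, was found in 3 members and in 7.32% of all genes. The GAS match of Trim30c is shown. It lay in a promoter peak in all 4 lists, as did that of Trim45, which is not shown.
Trim30c: cgtgactaaaTTCTTAGAAgcttagtgac
It lay at chr7:104400822-104400850. Trim45 was the other member whose GAS match lay in a peak, and those of Trim15, Trim31, Trim38 and Trim46 lay in none.

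Most of the ISRE matches came from a cluster of 10 genes on chromosome 7, Trim6, Trim34a, Trim34b, Trim5, Trim12a, Trim12c, Trim30b, Trim30c, Trim30a and Trim30d, several of which share sequence around their start sites. Trim30a and Trim30d were 90.2% identical over 1666 aligned bases within 1 kb of the start site, and Trim5 and Trim12a were 96.2% identical over 1980 bases. The 250 bases before the start sites of Trim30a and Trim30d are given for comparison, on the gene strand, with the reverse complement of the ISRE in capitals.
Trim30a (chr7:104465194-104465443, minus strand): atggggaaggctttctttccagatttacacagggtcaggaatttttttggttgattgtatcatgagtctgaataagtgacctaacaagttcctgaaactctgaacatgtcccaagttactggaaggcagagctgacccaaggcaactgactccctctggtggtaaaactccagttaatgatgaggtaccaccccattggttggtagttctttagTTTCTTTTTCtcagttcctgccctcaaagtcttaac
Trim30d (chr7:104507850-104508099, minus strand): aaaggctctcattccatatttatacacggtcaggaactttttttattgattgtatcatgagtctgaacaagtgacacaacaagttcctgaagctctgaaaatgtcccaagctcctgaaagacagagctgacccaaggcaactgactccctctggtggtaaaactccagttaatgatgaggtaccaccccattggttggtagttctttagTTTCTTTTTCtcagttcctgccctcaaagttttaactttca
The authors kept uniquely mapped reads, so copies this alike can lose reads, and the part of this in their peak heights was not tested.

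Presence of H3K27ac was taken as a peak overlapping the window 10 kb either side of any annotated start site. In Control, 47 of 68 members (69.1%, exact 95% interval 56.7 to 79.8%, counting error only) had such a peak, against 57.3% of all genes. IFNγ and PJ34 each gave 45 members (55.9% and 57% of all genes), and 47 had a peak under IFNγ+PJ34 (56.6% of all genes). A peak was present in all 4 lists at 44 members and in any list at 49, against 53.6% and 59.9% of all genes. Within 1 kb of a start site, a promoter peak was found at 43 members in Control (50.6% of all genes) and at 42 in each of the other lists (49.2% of all genes in IFNγ, 50.5% in PJ34, 49.7% with both agents). The same 42 had one in all 4 lists, against 47.8% of all genes.

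Peaks were counted by class of C-terminal domain, without a test between classes, beside the 57.3% of all genes with a peak in Control. Classes were taken from a list of genes, and protein sequences were not examined. The 4 members listed as without a RING finger (Trim14, Trim16, Trim29 and Trim44) were a class of their own, whatever their C-terminal domain. Of these, 3 had a promoter peak in Control. Of 36 other members listed with SPRY as the sole C-terminal domain, 27 had a peak in Control and 25 had a promoter peak there. All 5 members with a transmembrane, ARF, MATH or filamin domain (Trim13, Trim23, Trim37, Trim45 and Trim59) had a promoter peak in every list. The PHD-bromodomain corepressors Trim24, Trim28 and Trim33 had promoter peaks in all lists, whereas the peak counted for Trim66 was that of the neighbouring ribosomal protein gene Rpl27a. Of the 4 NHL members, Trim2, Trim3 and Trim32 had promoter peaks and Trim71, a gene of stem cells and the germ line, had no peak. None of the 4 members with a COS box and no SPRY domain, which include the muscle genes Trim54, Trim55 and Trim63, had a peak in Control.

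No list held a peak at 19 members. These were Trim9, Trim10, Trim15, Trim29, Trim31, Trim34b, Trim40, Trim42, Trim43a, Trim43b, Trim43c, Trim50, Trim54, Trim55, Trim60, Trim61, Trim67, Trim71 and Trim75. Among them Trim9 and Trim67 are known as neuronal genes and Trim10 as an erythroid gene. Trim43a and Trim43b were 97.2% identical over 2008 bases around the start site, and only uniquely mapped reads were kept, so that the absence of a peak there cannot be read as absence of acetylation.

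Promoter peaks of members were ranked by the percentile of their −log10 p within the list, which does not depend on the scale of that list. For Control, IFNγ, PJ34 and IFNγ+PJ34 the median percentile was 83.7, 84.2, 84.1 and 86.6, against 85.6, 84.4, 86.6 and 81.9 for all genes. The median width of a member's promoter peak was 1799 bp in Control and 1591.5 bp in IFNγ+PJ34, and for all genes it was 1701 and 1355 bp. The highest promoter peaks in Control were those of Trim8, Trim25, Trim47, Trim39, Trim14, Trim41 and Trim34a, at percentiles of 98.9, 97.2, 96.8, 96.8, 96.7, 95.8 and 94.6. The peaks of Trim8, a regulator of cytokine signalling, and Trim25 were also the widest, at 12826 and 11083 bp in Control. Trim69, Trim66 and Trim7 stood among the 10 highest by the 10 kb window alone, because the window reached the promoters of B2m, Rpl27a and Trim41.

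At the other end, Trim62 (percentile 35.5 in Control), Trim6 (24.6) and Trim38 (15.6) had the lowest promoter peaks. Trim38, which restrains innate signalling, had a promoter peak in Control alone, 215 bp wide with a fold enrichment of 2.89, and its other peaks lay at promoters of Hist1 histone genes. Promoter sequences of members with a promoter peak were less rich in CpG than those of other genes with one. The median was 12 CpG in 300 bases for 33 members and 21 for 9067 genes, with a median GC content of 53.3% and 61%.

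**Figure D1:**
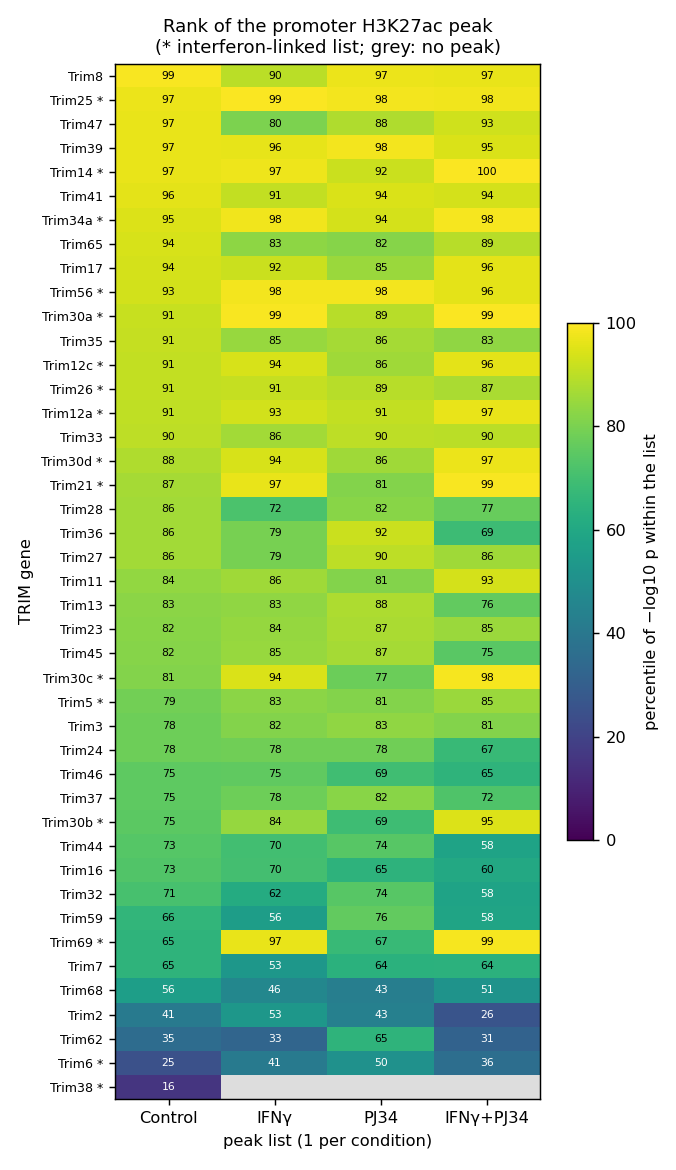
Heat map of the rank of the promoter peak, as the percentile of −log10 p within its list (colour and printed value), for the 43 TRIM genes with a promoter peak in any list (rows, ordered by Control) in the 4 lists (columns). Trim21, Trim30a, Trim30c and Trim69 are among the genes that stand higher in both lists with IFNγ than in both without. Trim30b and Trim30d are others, and grey cells have no peak.

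The comparison of IFNγ with Control addressed which members changed after 1 h of the cytokine. To compare peak height, the fold enrichment over input background that the authors' peak caller gave for the promoter peak was set as a log2 ratio between lists, and the median over all genes was subtracted. This centring was needed because the median promoter peak of all genes was lower in IFNγ than in Control by a log2 of -0.42. The same median was -0.11 for PJ34 against Control, -0.06 for IFNγ+PJ34 against IFNγ and -0.37 for IFNγ+PJ34 against PJ34. Of 42 members, 6 were then 2-fold or more higher in IFNγ (14.3%, interval 5.43 to 28.5%), against 4.67% of 10668 genes, and 3 were 2-fold or more lower, against 6.04%. The measure was chosen after the lists had been seen. Without centring, 2 members were 2-fold or more higher, Trim30a and Trim69.

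The largest ratio with the summit near the start site was at Trim30a (chr7:104409025-104465193, minus strand), a gene that restrains inflammatory signalling. The fold enrichment of its promoter peak was 23.6 for Control and 21.6 for PJ34, against 68.2 for IFNγ and 59.1 for IFNγ+PJ34. Both lists with IFNγ were thus high and both without were low, with a centred log2 ratio of 1.95 for IFNγ against Control and 1.82 for IFNγ+PJ34 against PJ34. Its rank moved from 91.4 to 98.9 and from 89.3 to 99.4, and a separate low peak in an intron, seen in both lists without IFNγ, was part of the promoter peak in both lists with it.

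Trim30d (chr7:104470014-104507849, minus strand), which holds the same ISRE stretch, went from 23.6 in Control to 26.3 in IFNγ, and from 23.4 in PJ34 to 50.3 in IFNγ+PJ34. Its centred log2 ratios were 0.57 and 1.47. The values of Trim30a and Trim30d were alike in Control and PJ34, and in IFNγ that of Trim30a was the higher. The difference between these genes was not tested.

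Trim21 (chr7:102557921-102565486, minus strand) had a fold enrichment of 25.03 in Control and 45.6 in IFNγ, with 20.1 in PJ34 and 68.1 in IFNγ+PJ34. The highest value was in IFNγ+PJ34, where a single peak of 5482 bp covered the positions of the promoter peak, 1723 bp wide in PJ34, and of 3 smaller PJ34 peaks before the start site. The centred log2 ratio was 1.28 for IFNγ against Control and 2.13 for IFNγ+PJ34 against PJ34.

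Trim30c (chr7:104382065-104400837, minus strand) had 20.7 in Control and 35.9 in IFNγ, with 12.9 in PJ34 and 43.8 in IFNγ+PJ34 as the fold enrichment of its promoter peak. Its highest peak within 10 kb rose by 21.1 percentile points between PJ34 and IFNγ+PJ34. By that measure Trim30c was the one member to rise by 20 points or more, against 2.57% of all genes. By the promoter peak it was not alone, as that of Trim30b rose by 26.1 points. The centred log2 ratios of Trim30c were 1.21 and 2.13.

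Trim69 (chr2:122160700-122179027, plus strand) had the largest ratios, 2.63 and 3.32, from fold enrichments of 8.98 in Control and 41.6 in IFNγ, with 8.00 in PJ34 and 62.1 in IFNγ+PJ34. These values do not describe 1 site. In Control and PJ34 a peak near the start site and a peak in an intron were separate, and in both lists with IFNγ they formed 1 peak of 4722 and 4701 bp whose summit lay 3507 and 3512 bases after the start site. The separate intronic peak had a fold enrichment of 46.7 in Control and 34.4 in PJ34. With the promoter peak limited to those with a summit within 1 kb of a start site, Trim69 left the count and 5 members were 2-fold or more higher.

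**Figure D2:**
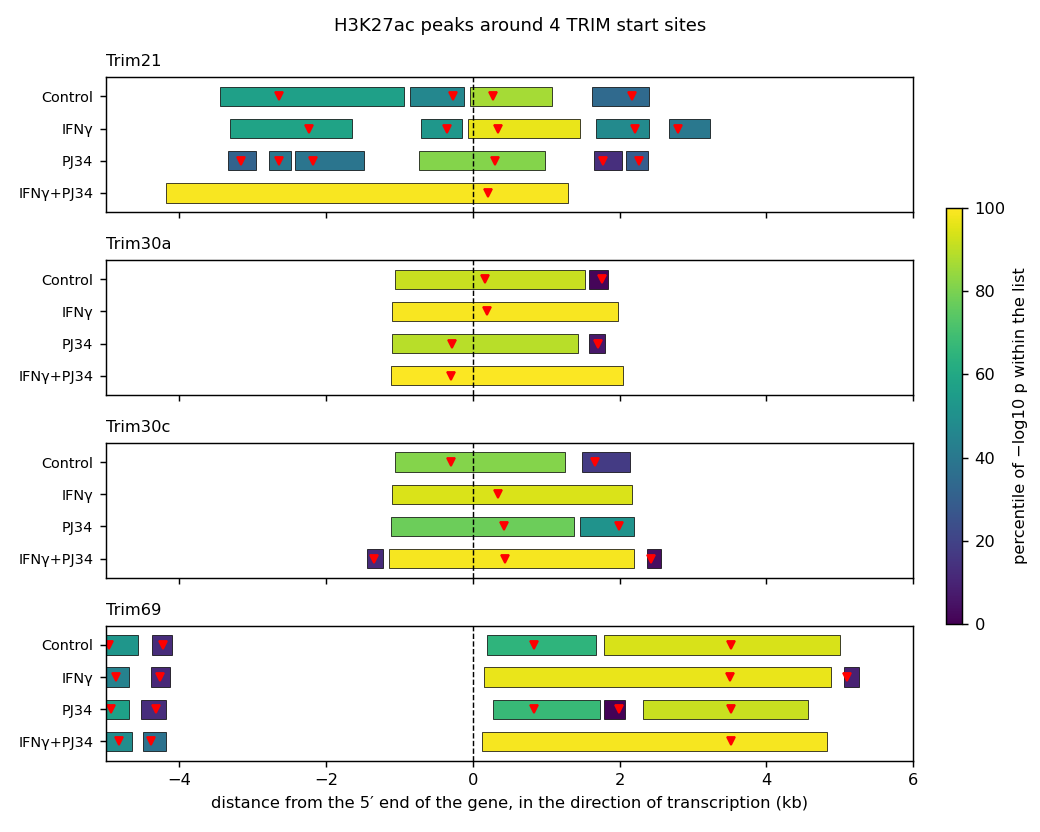
Peaks of the 4 lists around Trim21, Trim30a, Trim30c and Trim69, as bars against the distance in kb from the 5′ end of the gene, coloured by rank percentile, with a red mark at each summit. At Trim30a and Trim30c the peak in both lists with IFNγ takes in a small separate peak, and at Trim69 the joined peak has its summit in the intron, 3507 and 3512 bases in.

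Trim34a (chr7:104244457-104262234, plus strand) and Trim56 (chr5:137105644-137116209, minus strand) completed the 6. The fold enrichment of Trim34a was 57.5 in IFNγ and 33.0, 31.5 and 33.2 in Control, PJ34 and IFNγ+PJ34, and IFNγ alone stood apart. Trim56, which takes part in DNA and RNA sensing, had 31.4 in Control and 51.9 in IFNγ, with 56.2 in PJ34 and 37.7 in IFNγ+PJ34. It was thus high in each single treatment, with centred log2 ratios of 1.14 for IFNγ and 0.95 for PJ34 against Control.

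The members lower in IFNγ were Trim8, Trim47 and Trim28. Trim8 (chr19:46501702-46516848, plus strand) had a fold enrichment of 77.4 in Control and 19.8 in IFNγ, with 41.7 in PJ34 and 49.4 in IFNγ+PJ34. Its rank in IFNγ was 89.6, and 5 IFNγ peaks lay within the span of the broad Control peak, while the acetylated length within 10 kb was 0.91 times that in Control. Trim47 had 64.9, 17.2, 23.2 and 36.1 in the same order, and Trim28, the corepressor KAP1 of silenced repeats, had 29.3, 8.39, 14.4 and 12.7. The centred log2 ratios of IFNγ against Control were -1.54 for Trim8, -1.50 for Trim47 and -1.39 for Trim28. In all 3 genes Control was the highest of the lists and IFNγ the lowest. The 8 macrophage marker genes were also low in IFNγ, with a median centred log2 ratio of -0.78, 3 of them 2-fold or more lower and 1 above the median of all genes, and in PJ34 against Control their median was -0.65. Their part in the values of members was not tested.

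Of the 17 members listed as linked to interferon, 15 had a promoter peak in all 4 lists. All 15 stood above the median of all genes in IFNγ against Control, from 0.10 at Trim26 to 2.63 at Trim69, with a median centred log2 ratio of 0.71. Among 27 other members, 11 stood above it and the median was -0.10. Before centring, Trim5, Trim12a, Trim14 and Trim26 of the 15 were lower in IFNγ than in Control. In IFNγ+PJ34 against PJ34, 13 of the 15 stood above, with a median of 0.86, and the exceptions were Trim25 (-0.66) and Trim56 (-0.21). Trim14, a mitochondrial adaptor of RNA sensing, had fold enrichments of 49.2, 45.2, 35.0 and 49.4 in Control, IFNγ, PJ34 and IFNγ+PJ34. Those of Trim12a were 38.0, 37.4, 36.9 and 50.0, and those of Trim5 were 20.9, 19.6, 20.0 and 23.4, so that in both genes IFNγ+PJ34 gave the highest value. Trim6, the lowest of the list, had 4.00, 4.94, 5.84 and 5.03. The list was drawn up with earlier results of these lists known, and it is no independent evidence of direction.

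**Figure D3:**
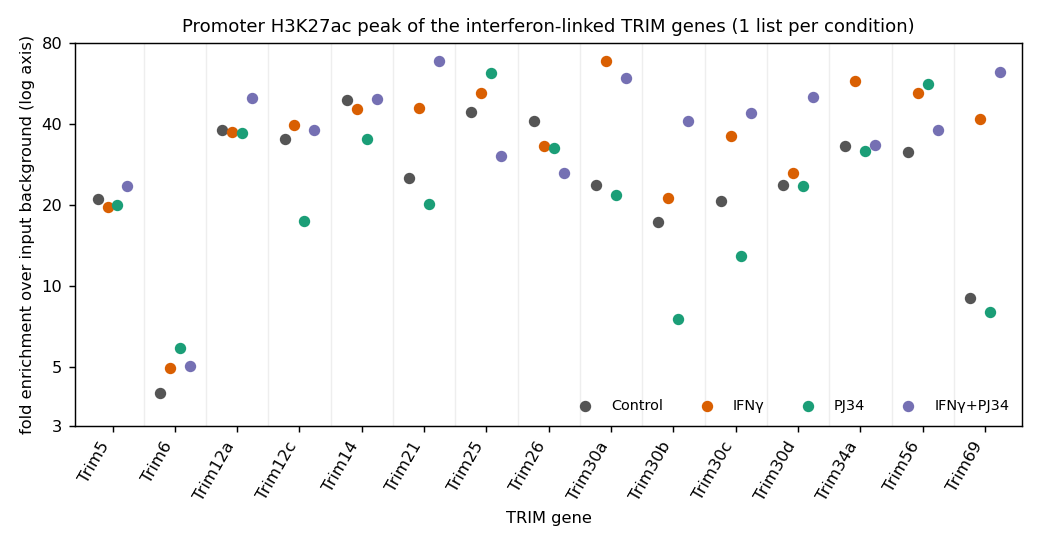
Fold enrichment of the promoter peak over input background (log axis) of the 15 interferon-linked TRIM genes with a promoter peak in all 4 lists, 1 point per list. Both points with IFNγ lie above both points without it at Trim21, Trim30a, Trim30b, Trim30c, Trim30d, Trim34a, Trim69 and Trim12c. At Trim34a the IFNγ+PJ34 point (33.2) is close to that of Control (33.0). At Trim6, Trim25 and Trim56 the PJ34 point is the highest.

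The members with an ISRE match were compared with those without one. Trim2 was left out, because its match lay in no peak and its promoter peak in PJ34 stood at another start site than in the other lists. The other 8 members with a match were all above the median in IFNγ against Control, with a median centred log2 ratio of 0.58, and in IFNγ+PJ34 against PJ34, with a median of 1.14. Before centring, Trim5, Trim12a and Trim26 were lower in IFNγ than in Control, with log2 ratios of -0.09, -0.02 and -0.31. Trim26 was also lower in IFNγ+PJ34 than in PJ34 (-0.31). Of the 23 members with a promoter sequence and no match, 13 and 10 stood above the median of all genes. They include Trim30b, whose promoter sequence (chr7:104358597-104358896) lay away from its promoter peak (chr7:104369031-104370829 in Control). The search thus did not cover the peak of Trim30b. Over all genes, 60% of 350 with a match and 50.0% of 8122 without one stood above the median in IFNγ against Control, and 67.9% of 343 and 49.0% of 8134 did in IFNγ+PJ34 against PJ34. The members with an ISRE match include neighbours of the chromosome 7 cluster with like sequence, so they are not independent of each other. For the GAS element, 2 of 3 members with a match and 20 of 29 without stood above the median in IFNγ against Control. In IFNγ+PJ34 against PJ34, 2 of 3 and 17 of 29 did. Over all genes, 56.6% with a GAS match and 49.8% without did in the first comparison, and 58.1% and 49.0% in the second. No gene was left out for a match outside the peaks in the GAS counts, which include Trim46, or in the shares of all genes.

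The comparison of PJ34 with Control gave smaller changes. Of 42 members, 1 was 2-fold or more higher (Trim62, against 3% of 10869 genes) and 3 were lower (Trim65, Trim47 and Trim30b, against 4.48%). Trim62 (chr4:128883580-128911328, plus strand) had fold enrichments of 4.25 in Control and 3.61 in IFNγ, with 9.06 in PJ34 and 3.99 in IFNγ+PJ34, and PJ34 alone stood apart. Its rank rose by 29.5 points from Control to PJ34 and fell by 33.6 points from PJ34 to IFNγ+PJ34. Trim65, an activator of the RNA sensor MDA5, had 50.5 in Control and between 17.6 and 22.1 in the other lists. Trim30b had 17.2 in Control, 7.49 in PJ34, 21.1 in IFNγ and 41.1 in IFNγ+PJ34. Trim6, at percentile 24.6 in Control and 50.4 in PJ34, was the other member whose highest peak rose by 20 points or more (2 of 45, against 1.68% of all genes), and 0 fell as far, against 2.11%.

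Whether PJ34 altered the IFNγ-treated state was addressed by IFNγ+PJ34 against IFNγ, which shares its lists with the comparisons above. Trim8, Trim47 and Trim30b were 2-fold or more higher (3 of 42, against 7.91% of 10574 genes), with centred log2 ratios of 1.38 at Trim8 and 1.02 at Trim30b, and 0 were 2-fold or more lower, against 6.48%. Trim8 and Trim47 were among the members 2-fold or more lower in IFNγ than in Control, and in IFNγ+PJ34 they remained under their Control value.

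The effect of IFNγ in the presence of PJ34 was read from IFNγ+PJ34 against PJ34. Here 11 of 42 members were 2-fold or more higher (26.2%, interval 13.9 to 42.0%), against 9.3% of 10674 genes, and 1 was lower, against 6.97%. The higher members were Trim69 (3.32), Trim30b (2.82), Trim30c (2.13), Trim21 (2.13), Trim30a (1.82), Trim17 (1.59), Trim12c (1.5), Trim30d (1.47), Trim11 (1.39), Trim68 (1.12) and Trim47 (1.01) as centred log2 ratios. Of the 11, 5 were among the 9 members of the chromosome 7 cluster with a promoter peak. All 11 were in the class with SPRY as the sole C-terminal domain, which held 24 of the 42 members compared. The class without a RING finger, counted apart, held 3 of the 42 and 0 of the 11. The classes were not tested against each other. The summit of the Trim17 peak, like that of Trim69, lay away from the start site in IFNγ+PJ34, and without both the count was 9. The lower member was Trim36, at 39.2 in PJ34 and 10.4 in IFNγ+PJ34.

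IFNγ against Control and IFNγ+PJ34 against PJ34 have no list in common. Trim21, Trim30a, Trim30c and Trim69 were 2-fold or more higher in both (4 of 42, 9.52%), against 1.26% of 10479 genes, and 3 of these had the summit near the start site. Above the median of all genes in both stood 18 members (42.9%, interval 27.7 to 59.0%), against 24% of all genes. The 18 include all 9 members of the chromosome 7 cluster with a promoter peak. These are neighbours, several with like sequence, and the interval counts them as independent genes. Trim2, among the 18, had its promoter peaks in PJ34 and IFNγ+PJ34 at different start sites. Below it in both stood 6 (14.3%), Trim27, Trim32, Trim36, Trim41, Trim44 and Trim59, against 24.7%. Without the chromosome 7 cluster, and likewise without centring, 2 members were 2-fold or more higher in both.

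**Figure D4:**
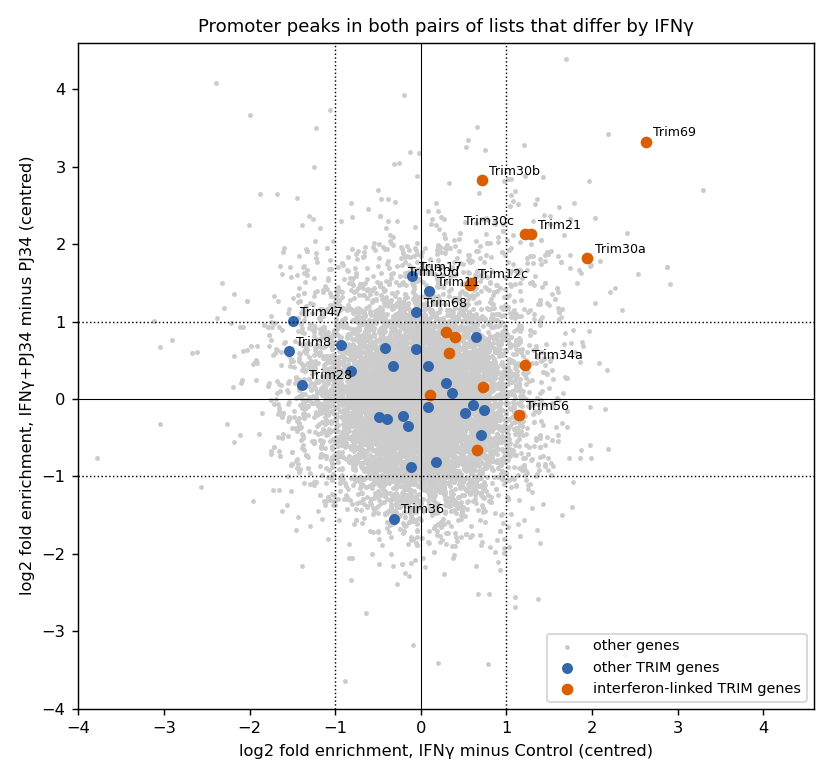
Centred log2 ratio of promoter peak fold enrichment in IFNγ against Control (x axis) and in IFNγ+PJ34 against PJ34 (y axis), with 1 point per gene for TRIM genes (orange for the interferon-linked list, blue for others) and other genes (grey). Dotted lines mark a 2-fold ratio, and Trim69, Trim30a, Trim21 and Trim30c lie beyond both on the upper right.

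Peaks were also compared by position, a peak being gained or lost where the other list held none that overlapped it by 1 bp. In IFNγ against Control, 7 members had a gained peak within 10 kb (10.3%, against 8.53% of all genes) and 7 had a lost one (against 18%). No gained peak of a member had its summit within 1 kb of a start site. The highest was in an intron of Trim2 (chr3:84218439-84219279), at percentile 59.6 with a fold enrichment of 6.90, and found in no other list. The next were at Trim21 (40.1, intron), before Trim72 (33.7) and at Trim25 (31.5, intron), and those at Trim65, Trim69 and Trim11 were under percentile 20. Lost peaks were low in rank, between 0.356 and 20.0, and lay at Trim3, Trim58, Trim17, Trim11, Trim80, Trim27 and Trim38.

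In PJ34 against Control, 3 members had a gained peak (4.41%, against 11.3%), namely Trim8, Trim25 and Trim36, and 8 had a lost one (11.8%, against 14.3%). Of the members that lost a peak, 7 were also those that lost one in IFNγ, a comparison with the same Control list, and Trim16 was the other. The counts for IFNγ+PJ34 against IFNγ were 15 gained (22.1%, interval 12.9 to 33.8%, against 14.7%) and 9 lost (13.2%, against 13.1%). Against PJ34 they were 14 gained (20.6%, interval 11.7 to 32.1%, against 12.1%) and 9 lost (against 17.2%), and both intervals of gained peaks held the share of all genes.

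The highest gained peaks of IFNγ+PJ34 lay away from promoters. At Trim5 a peak of 1303 bp (chr7:104296125-104297427) between Trim5 and Trim12a was found in IFNγ+PJ34 alone, at percentile 62.6 with a fold enrichment of 7.90. A GAS match lay near its summit.
Trim5 upstream peak: atcctcttctTTCTTAGAAccctcatctg
Trim52 had its one peak in IFNγ+PJ34 (chr14:106099453-106100160, percentile 56.5), as did Trim63 (percentile 30.1). Trim25, Trim30b and Trim30c gained low peaks within or before the gene, under percentile 12. Of 21 member peaks absent from PJ34, 2 had a GAS match within 150 bases of the summit (9.52%), against 10.6% of all 11045 such peaks in the list. The GAS share of members was thus near that of all. An ISRE match lay as near the summit in 2 of the 21 (9.52%), at Trim52 and Trim30c, against 5.22% of the 11045. This difference rests on 2 peaks and was not tested.

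**Figure D5:**
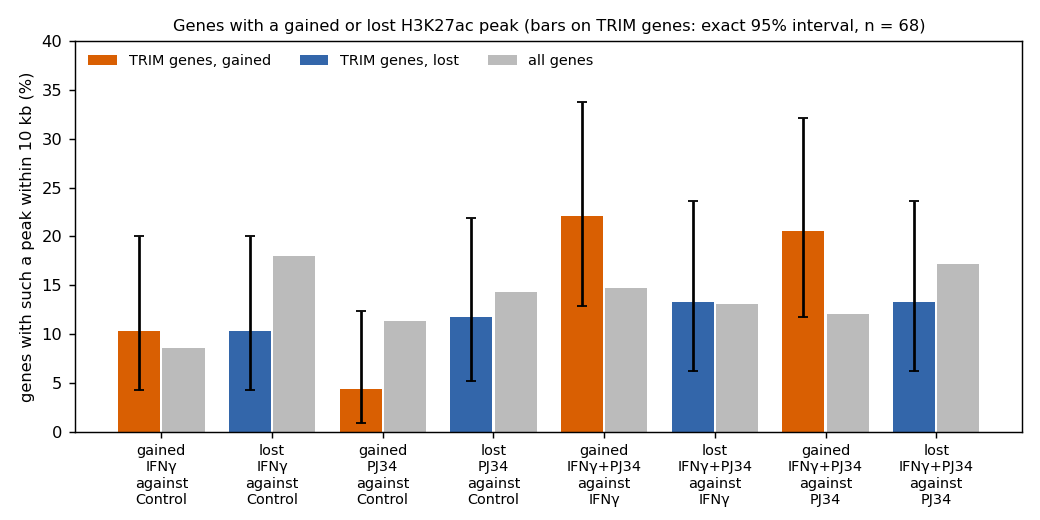
Percent of the 68 TRIM genes (coloured bars, with exact 95% intervals) and of all genes (grey bars) with a gained or a lost peak within 10 kb in each of the 4 comparisons. The highest TRIM bars are the gained peaks of IFNγ+PJ34, at 22.1 and 20.6%.

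Members whose presence differed between lists rested on such low or distant peaks. Trim58 had a peak in Control (percentile 0.356) and IFNγ+PJ34 (30.1), and Trim80 had one in Control (11.7) alone. Trim66 lost its peak in IFNγ+PJ34 because the Rpl27a peak, at percentile 93.7 there, did not reach into the window. Trim72, a muscle membrane repair gene, moved by -24.7 points in IFNγ and by 26.3 points from IFNγ to IFNγ+PJ34, but the peak was that of the inflammasome adaptor gene Pycard. It was the one member to move down by 20 points or more in IFNγ (5.03% of all genes) and the one to move up as far from IFNγ to IFNγ+PJ34 (3.45%), and 0 moved up as far in IFNγ (1.35%). Trim38 fell by 27.2 and 27.7 points in IFNγ+PJ34 against IFNγ and PJ34, and the peak was that of histone genes. It was the one member to fall so far from IFNγ (4.16% of all genes), and from PJ34 it was 1 of 3 with Trim36 and Trim62 (7.84%).

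The acetylated length within 10 kb changed by 2-fold or more at few members. In IFNγ it was 3.12 times that of Control at Trim72 (1 of 45 longer, against 1.02% of all genes), and 0.49 and 0.25 times at Trim62 and Trim66 (2 shorter, against 7.21%). In PJ34 against Control 0 members were longer and 0 shorter, against 1.22% and 3.62%. From IFNγ to IFNγ+PJ34, Trim6 and Trim72 were longer (2.19 and 2.05 times, against 3.31% of all genes) and Trim13 was shorter (0.37 times, against 3.61%). From PJ34 to IFNγ+PJ34, Trim72 was longer (4.83 times, against 3.09% of all genes) and Trim13 was shorter (0.34 times, against 7.01%).

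Merging the peaks within 10 kb of members gave 99 regions. Of these, 66 (66.7%) were found in all 4 lists, against 55.3% of 24423 regions near any gene, 12 (12.1%) in IFNγ+PJ34 alone, against 6.59%, and 3 in Control alone, against 9.32%. The 12 included repeated regions at Trim25, Trim30b and Trim30c, which were low, at percentiles between 3.35 and 11.97. Regions of the same gene are not independent, so the 12 do not stand for as many genes. Whether regions near any gene are repeated as often was not tested. Regions at Trim13, Trim2, Trim24 and Trim21 were found in Control, IFNγ and PJ34 and not in IFNγ+PJ34. This pattern took 4.04% of member regions, near the 4.16% of regions near any gene. That of Trim13, a ligase of the endoplasmic reticulum, was the highest, at percentile 63.5 in IFNγ, and the promoter peak of Trim13 was 1403 bp wide in IFNγ and 642 bp in IFNγ+PJ34.

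Relatives of the family without a Trim symbol and genes of linked pathways were set beside the members. Of 9 relatives, Pml, Mid1 and Mefv had a promoter peak, and all 3 stood above the median in IFNγ against Control and were 2-fold or more higher in IFNγ+PJ34 against PJ34. Pml, the organiser of nuclear bodies, had fold enrichments of 28.6 in Control and 60.9 in IFNγ, with 23.2 in PJ34 and 86.5 in IFNγ+PJ34. Of 11 genes of RNA and DNA sensing, 0 were 2-fold or more higher in IFNγ and 3 were in IFNγ+PJ34 against PJ34 (Ddx58, Dhx58 and Mavs). Of 11 reference IFNγ-response genes with a promoter peak, 7 were 2-fold or more higher in IFNγ and 10 in IFNγ+PJ34 against PJ34. Psmb9 and Tap1 share 1 promoter peak. Among the others Cxcl10 went from 6.53 in Control to 20.0 in IFNγ and from 10.7 in PJ34 to 42.2 in IFNγ+PJ34.

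All 8 macrophage marker genes had a promoter peak in every list. Of the 13 markers of T cells, B cells, neutrophils and erythroid cells, between 2 and 3 had one. The lists hold no read counts, so depth is unknown. They held between 40708 and 44090 peaks, the Control list was the widest in coverage at 52.6 Mb and the IFNγ list the narrowest at 42.5 Mb, and the part of this in the lost peaks of members was not tested.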

How the data were processed

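H3K27ac ChIP-seq was made by the authors from 8 ChIP and 8 input samples of BMDMs, 2 of each per condition. Reads were aligned to mm10 with Bowtie, filtered for unique mapping, and peaks were called with MACS at p 0.01 against input in each replicate, and the peaks found in both replicates formed the list of a condition. The lists were used as deposited. Each deposited peak has a score from the authors' files, a fold enrichment (ratio) over local background, a −log10 p-value and a −log10 q-value, and a summit offset, and the score was not used for ranking. Sequencing depth is not given in the sources used here. The input samples were not analysed by themselves.

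Genes and start sites came from GENCODE release M21 (basic set), without mitochondrial genes, and promoter sequences from RefSeq for GRCm38, which matched 53 of 68 members by symbol. Peaks were assigned by an overlap of 1 bp with the window 10 kb (promoter: 1 kb) around any start site. A rank shift of 20 points and a 2-fold ratio were called. Ratios were centred on the median of all genes. Exact Clopper-Pearson 95% intervals were computed with SciPy 1.17.1 and start-site likeness with BLAST 2.17.0, in Python 3.11.15. The functions were tested on simulated lists. Members and gene lists were chosen with earlier results of these data known. Genes were named if they belonged to the interferon-linked list, had a gained or lost peak or a presence that differed, shifted by 20 points, ranked among the 10 highest in Control, or had no peak. Trim11, Trim17, Trim28, Trim47, Trim62, Trim65 and Trim68 and the relatives and pathway genes with values were also named for their promoter ratio, which was chosen after the lists had been seen.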

Additional observations from a re-analysis of the deposited data

Results flagged for a closer look

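In some regions the presence of a peak differed between the lists with and without IFNγ, in opposite ways without and with PJ34. In 4 member regions a peak was found in Control and IFNγ+PJ34 only. It thus counted as lost in IFNγ against Control and as gained in IFNγ+PJ34 against PJ34. They lay near Trim3, Trim11, Trim27 and Trim58, and their percentiles were between 0.356 and 20.0 in Control and between 4.64 and 30.1 in IFNγ+PJ34. This pattern took 4.04% of member regions and 2.32% of regions near any gene. The reverse pattern, regions found in IFNγ and PJ34 only, held 0 member regions and 1.78% of regions near any gene. The difference between the patterns was not tested, since no list has a replicate.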

How the results depend on the processing

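No paired analysis was possible because the replicates of a condition had been merged into a single list, which also kept any replicate from being left out. Over 88 alternatives to 12 counts, 58 stayed within 1.5 times the main count and 30 did not. The counts of members with a peak in a list stayed within it in every alternative. Gained and lost counts are given for IFNγ against Control, PJ34 against Control, IFNγ+PJ34 against IFNγ and IFNγ+PJ34 against PJ34, in this order. With 1 kb in place of 10 kb, gained counts were 0, 0, 0 and 1 and lost counts 1, 1, 2 and 1. With 50 kb they were 22, 16, 34 and 33 gained and 32, 29, 20 and 24 lost. These changes follow from the size of the window. In the higher-ranking 50% of each list, gained counts were 2, 5, 6 and 4, and the count lost in PJ34 against Control was 5. With peaks within 1 kb counted as shared, gained counts were 2 in IFNγ against Control, 7 in IFNγ+PJ34 against IFNγ and 9 in IFNγ+PJ34 against PJ34, and lost counts in the latter comparisons were 1 and 2. The count gained in PJ34 against Control was 5 with lists of equal size, with q under 0.01 and with 50% of the peak covered, and the count lost in IFNγ against Control was 12 with 50% covered. The cause of these changes was not tested. Start sites limited to the 5′ end of the gene moved none of the 12 counts by over 1.5 times. The stricter GAS form TTCCNGGAA was found in 1.89% of member promoters and in 1.42% of those of all genes. With Trim2 included, 9 of 9 members with an ISRE match stood above the median of all genes in IFNγ against Control and in IFNγ+PJ34 against PJ34, and without it, a choice made once the values were known, 8 of 8 did. The promoter ratio counts without centring, without the chromosome 7 cluster and by summit were chosen once the data were known. In IFNγ against Control they were 2, 3 and 5 in place of 6, and in IFNγ+PJ34 against PJ34 9, 6 and 9 in place of 11. Shares of all genes are not given for the alternative counts of peaks and promoter ratios. These counts therefore cannot be compared with all genes.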
